A study of Arabidopsis thaliana with 48 samples.

Results

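The light by glucose interaction is the amount by which the light response of a gene differed between seedlings given glucose and seedlings given none. It was measured in wild-type Arabidopsis thaliana seedlings 4 d after germination as the log2 ratio of light to dark with glucose minus the log2 ratio of light to dark without glucose. A value below 0 means that the light to dark ratio was lower with glucose, and a value above 0 that it was higher. It rests on 12 of the 42 RNA-seq libraries of the study, chosen by their labels alone, and on the 22586 of 32678 genes that passed a filter on low counts. The 4 groups, with 3 libraries each, were wild-type seedlings kept in the dark, wild-type seedlings in the light, wild-type seedlings in the dark with glucose and wild-type seedlings in the light with glucose, all 4 d old and all sequenced from whole seedlings. The study also sequenced the same 4 groups of an snrk1a1/a2 mutant, marked kd in the titles, and both genotypes at 3 d in the dark and at 5 d in dark and light. The labels used here give no glucose dose, no time of light onset, no accession of the wild type and no statement that replicates were separate cultures, so the p-values measure only the spread between these samples.

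Light and sugar both act on the genes of a young seedling. Light, perceived by phytochromes and cryptochromes, ends hypocotyl elongation and turns on the genes of chlorophyll synthesis, photosynthesis, photoprotection and flavonoid synthesis, in part through HY5 and related factors and through the removal of phytochrome-interacting factors that bind G-box sequences. Glucose signals carbon supply: hexokinase and the SnRK1 kinase, whose catalytic subunits are KIN10 (SNRK1A1) and KIN11 (SNRK1A2), link it to photosynthesis genes, to starvation genes and to growth.

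The 12 libraries held 10028344 to 16908412 counts each. One library stood apart before any test was made. The library labelled wild-type dark glucose 2 had a correlation of log2 expression of 0.962 and 0.959 with the other wild-type dark glucose libraries, but 0.989 and 0.988 with mutant dark glucose libraries 1 and 3, and the library labelled mutant dark glucose 2 was likewise closer to the wild type, at 0.989 and 0.985 with wild-type libraries 1 and 3. Both were used under their labels, and results are given with and without the wild-type one, called library 2 where no group is named. The mutant libraries did not have less KIN10 RNA than the wild type: KIN10 stood at 126 to 137 CPM (counts scaled to 1e+06 per library) in the mutant dark libraries and at 88.4 to 105 CPM in the wild-type ones, so KIN10 does not serve as a check of the genotype labels. All glucose libraries belong to one series of titles and all untreated 4 d libraries to another, so that glucose and series cannot be told apart in a glucose difference. In the interaction, a difference between series that acts equally in light and dark cancels on the log scale, and one that differs between light and dark cannot be told apart from glucose. RNA was taken from whole seedlings, where fewer cells of a type and less RNA per cell cannot be told apart. Root, shoot apex and seed storage markers had no member with a called interaction. Their medians were 0.35, 0.05 and -1.69 (0.24, 0.08 and -1.945 without library 2). In both fits 10 of 16 root and 10 of 17 shoot apex markers lay above 0, and 8 of 9 seed storage genes tested below 0. Seed storage genes summed to 5.8 to 7.3 CPM in the dark, 5.3 to 57.1 CPM in the light, 8.2 to 10.97 CPM in the dark with glucose and 5.6 to 25.4 CPM in the light with glucose, and the part of this in other results was not tested.

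Fewer genes were called in light against dark when glucose was present. Without glucose, 3254 genes were higher (14.4%) and 3039 lower (13.5%) in light, 27.9% of those tested in all, by edgeR's quasi-likelihood test with Benjamini-Hochberg adjustment at 0.05. With glucose, 983 were higher (4.35%) and 779 lower (3.45%), 7.8% of those tested in all. Without library 2, 1080 genes, 4.65%, were called, 2.57% higher and 2.08% lower (1047 to 1151 without any one light glucose library). The glucose difference was called for 9698 genes in the dark, 42.9%, and for 8211 in the light, 36.4%. Without library 2 it was called for 7677 of 23237 genes in the dark and for 8367 in the light. Which of these counts was larger thus depended on library 2. The interaction itself tests the difference between the light responses with and without glucose, gene by gene. It was called for 517 genes, 2.29% of those tested, with 271 above 0 (1.2%) and 246 below 0 (1.09%). Of the 517, 388 had a size of at least 2-fold. Without library 2 it was called for 357 genes, 1.54%, with 167 above 0 (0.719%) and 190 below 0 (0.818%). The 2 fits shared 278 genes, all with the same sign, 140 above 0 and 138 below 0. The count moved by more than 1.5 times with several other single libraries: it was 155 without wild-type light library 3, 889 without wild-type dark glucose library 3, and between 218 and 294 without dark library 1 or 3, dark glucose library 1 or any one of the light glucose libraries. With RLE size factors in place of TMM it was 216 above 0 and 412 below 0, so that the share above 0 went from 52.4% to 34.4%.

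Among the 517 genes, the median size of the light response was 1.16 on the log2 scale without glucose and 0.28 with it, against 0.40 and 0.22 over all genes tested. The light response was called without glucose for 476 of them and with glucose for 107, and these comparisons share their samples with the interaction, so the counts describe the called genes and do not test them. The sign of the estimated light response differed between the conditions for 279 of the 517, many of them with a small estimate with glucose. The named genes are described in 3 groups: genes that light raised without glucose, genes that light lowered without glucose and that had no called rise with it, and genes for which the estimate was below 0 without glucose and above 0 with it.

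**Figure D1:**
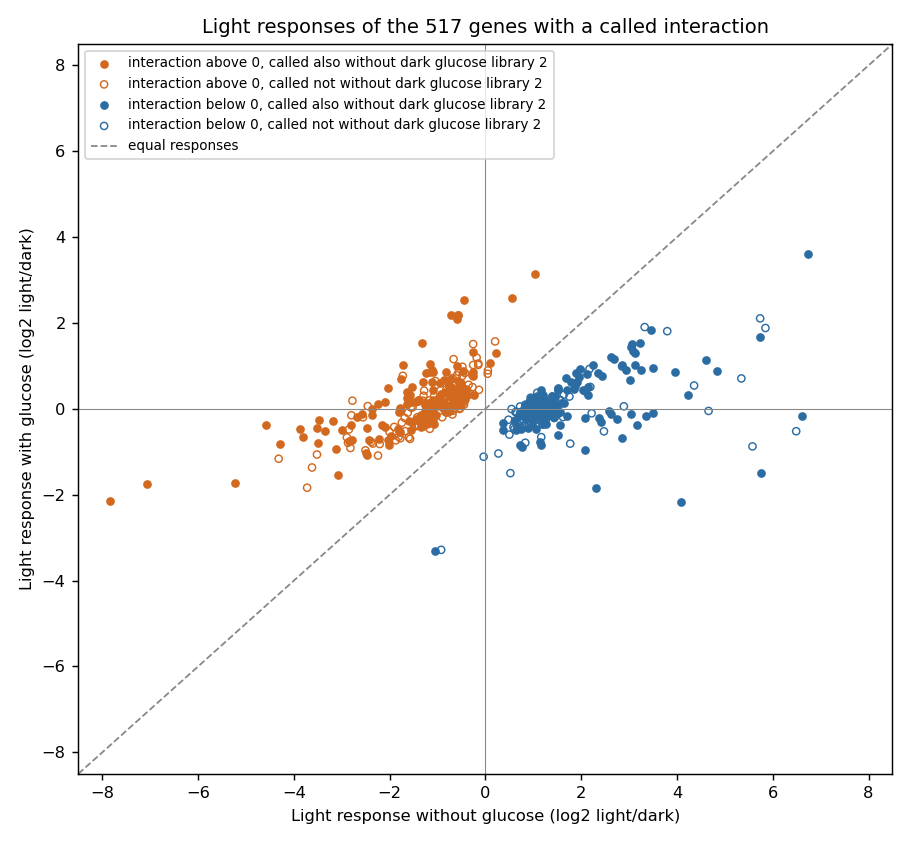
Light response (log2 light/dark) of the 517 genes with a called interaction, without glucose on the x axis and with glucose on the y axis, filled where the call also held without dark glucose library 2. Most points lie near the horizontal zero line, at a median size of 0.28 with glucose against 1.16 without.

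The largest interactions below 0 included genes of photoprotection. ELIP1 (AT3G22840, chr3:8084447-8085560, minus strand) and ELIP2 (AT4G14690, chr4:8418283-8419263, plus strand) encode early light-induced proteins of the thylakoid membrane, which bind pigments while chloroplasts are built or stressed. ELIP1 stood at 13.4, 15.6 and 14.02 CPM in the dark and at 103, 38.9 and 54.7 CPM in the light. With glucose it stood at 458, 699 and 334 CPM in the dark and at 137, 126 and 121 CPM in the light. No groups overlapped, and the 3 dark glucose libraries were the highest of all 12. The light response was 2.303 ± 0.59 (log2 ± SE, pooled over 42 libraries, n = 3 per group; adjusted p = 0.00391) without glucose and -1.85 ± 0.57 (adjusted p = 0.0388) with it, and the interaction was -4.16 ± 0.82 (adjusted p = 0.00611). Without library 2 the interaction was -3.88 (adjusted p = 0.0175), while the light response with glucose was -1.58 (adjusted p = 0.16) and no longer passed.

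ELIP2 rose from 6.41, 8.59 and 6.37 CPM in the dark to 126, 124.5 and 123 CPM in the light, with no overlap. With glucose the dark libraries held 78.5, 226 and 89.7 CPM and the light libraries 120, 164 and 167 CPM, and these overlapped because library 2 was the highest of them. The light responses were 4.23 ± 0.59 (adjusted p = 2.92e-06) and 0.32 ± 0.50 (adjusted p = 0.831), and the interaction was -3.91 ± 0.76 (adjusted p = 0.00516), or -3.33 (adjusted p = 0.0206) without library 2. The genes are close paralogs, so reads may be split between them and each value is uncertain to that extent. VTE1 (AT4G32770, chr4:15804914-15807982, plus strand), the tocopherol cyclase of vitamin E synthesis, rose in light under both conditions but less with glucose. It went from 4.204, 3.97 and 5.17 CPM in the dark to 36.9, 23.8 and 29.1 CPM in the light, and with glucose from 11.7, 10.6 and 10.4 CPM to 20.7, 19.5 and 22.1 CPM. All light libraries were above their dark libraries in both conditions. The interaction was -1.84 ± 0.36 (adjusted p = 0.00516), or -1.89 (adjusted p = 0.00774) without library 2.

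Flavonoid genes were the list with the lowest median among those with called members. CHS (AT5G13930, chr5:4488688-4490264, plus strand), chalcone synthase, the first enzyme of flavonoid synthesis, stood at 13.0, 19.3 and 13.4 CPM in the dark and 223, 213 and 228 CPM in the light. With glucose it was already at 468, 629 and 431 CPM in the dark, above every untreated light library, and at 831, 843 and 913 CPM in the light. No groups overlapped. Its light response was 3.96 ± 0.50 (adjusted p = 5.36e-07) without glucose and 0.86 ± 0.44 (adjusted p = 0.291) with it, and the interaction was -3.10 ± 0.64 (adjusted p = 0.00856), or -2.97 (adjusted p = 0.0215) without library 2. FLS1, flavonol synthase, had levels of 2.07, 4.83 and 4.34 CPM in the dark, 21.6, 28.1 and 27.6 CPM in the light, 77.6, 159 and 58.2 CPM in the dark with glucose, and 94.2, 84.6 and 104 CPM in the light with glucose. Here light and dark overlapped with glucose because of library 2, and the interaction of -2.83 ± 0.67 (adjusted p = 0.0209) was lost without it, at -2.36 (adjusted p = 0.0677).

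Over the flavonoid and anthocyanin list, 3 of 21 genes tested were called below 0, against 1.09% of all genes, and none above 0. Without library 2 it was 2, against 0.818% of all genes. The list stood at a list median of -1.71 against 0.01 over all genes, and 18 of 21 had values below 0. The third called member was MYB11, a flavonol regulator with no read in any dark library, which at 3 counts over the group allows up to 0.0756 CPM, so its fitted value has no fixed size. Its call was lost in 4 of the 12 fits that left out 1 library each, those without dark library 1, 2 or 3 or light library 3, with adjusted p up to 0.11. With GSTF12, PAP2 and MYB11, all at 0 in the dark, set at this bound, the list median was -1.64. Without glucose 16 members rose in light and none fell, and the median of the whole list was 2.89. With glucose 9 rose and none fell, and the list median was 1.06 (6 and 1.14 without library 2). CHI, PAP1 and F3'H, for an isomerase, a MYB activator and a hydroxylase, showed interactions of 0.01, -0.01 and 0.20, none of which passed. HYH, the bZIP factor closest to HY5, went from 9.54, 10.4 and 10.8 CPM in the dark to 105, 94.0 and 119 CPM in the light, and with glucose from 27.7, 17.7 and 32.3 CPM to 77.2, 109 and 75.2 CPM. Its interaction of -1.64 ± 0.46 (adjusted p = 0.0491) was -1.87 (adjusted p = 0.0321) without library 2 and did not pass in 11 of the 12 fits that left out 1 library each, all but that one.

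Several other genes shared the pattern of a light rise that was smaller with glucose. NDA1 (AT1G07180, chr1:2204320-2206934, plus strand), an internal alternative NAD(P)H dehydrogenase of mitochondria known to be light-responsive, stood at 0.467, 0.505 and 0.646 CPM in the dark and 49.2, 47.0 and 64.8 CPM in the light. With glucose it stood at 5.25, 3.10 and 2.98 CPM in the dark and 48.3, 43.7 and 38.7 CPM in the light. The light libraries of both conditions overlapped and the dark ones did not. It rose in light both ways, by 6.74 ± 0.44 (adjusted p = 1.00e-12) and 3.61 ± 0.34 (adjusted p = 1.94e-08), with an interaction of -3.13 ± 0.56 (adjusted p = 0.00233), or -3.28 (adjusted p = 0.00361) without library 2. CSLB03 (AT2G32530, chr2:13809216-13813570, plus strand), a cellulose synthase-like gene, differed from NDA1 in where the groups parted. It held 0.734, 0.794 and 0.461 CPM in the dark, 34.6, 28.6 and 38.8 CPM in the light, 3.70, 1.15 and 1.59 CPM in the dark with glucose and 7.88, 6.45 and 5.26 CPM in the light with glucose. Its highest level was in light without glucose, and the interaction was -4.06 ± 0.71 (adjusted p = 0.00177), or -4.38 (adjusted p = 0.00159) without library 2.

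ZF14 (AT1G58340, chr1:21653008-21655439, plus strand), a transporter of the MATE family, was highest in light without glucose. It stood at 4.204, 5.12 and 2.68 CPM in the dark and 37.2, 22.7 and 31.0 CPM in the light, and with glucose at 5.52, 10.4 and 6.53 CPM in the dark and 10.5, 9.64 and 13.0 CPM in the light. Every untreated light library was above all others, and library 2 of dark glucose overlapped the light glucose group. The interaction was -2.35 ± 0.30 (adjusted p = 1.75e-05), or -2.09 (adjusted p = 0.000215) without library 2. CXE13 (AT3G48700, chr3:18038648-18039876, minus strand), a carboxylesterase, had no called light response with glucose: 45.3, 50.4 and 49.0 CPM in the dark and 42.2, 39.1 and 43.5 CPM in the light, against 1.201, 1.52 and 1.11 CPM and 11.4, 10.7 and 7.70 CPM without glucose. The light glucose libraries lay just below the dark glucose ones, and its light response with glucose was -0.12 ± 0.37 (adjusted p = 0.924), and the interaction was -3.17 ± 0.62 (adjusted p = 0.00525), or -3.17 (adjusted p = 0.0109) without library 2. NAC044 and GMI1, both known from the DNA damage response, had interactions of -3.55 ± 0.71 (adjusted p = 0.00615) and -2.72 ± 0.58 (adjusted p = 0.0102), or -3.26 and -2.55 without library 2. Both passed there, as the naming rule required of the genes with the largest values. SWEET2, a vacuolar sugar transporter, went from 24.2, 26.9 and 35.3 CPM to 256, 207 and 239 CPM in light, and with glucose from 13.3, 9.15 and 11.4 CPM to 23.4, 29.8 and 25.8 CPM. Its groups overlapped only between untreated dark and light with glucose, and its interaction of -1.81 ± 0.45 (adjusted p = 0.0274; -1.97, adjusted p = 0.0286 without library 2) did not pass in 6 of the 12 fits that left out 1 library each.

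**Figure D2:**
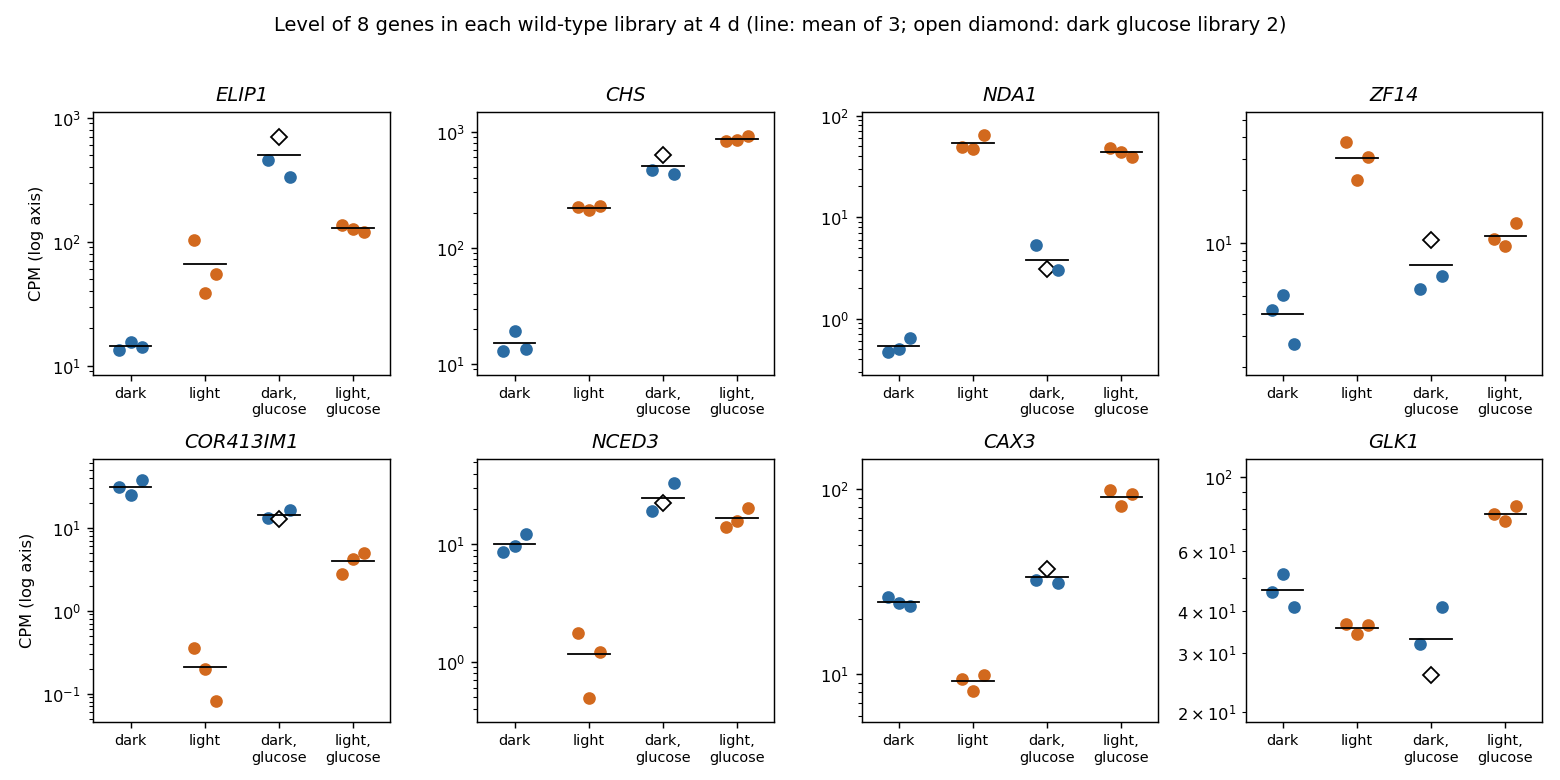
CPM (log axis) of 8 genes in each wild-type library at 4 d; points are libraries, lines the mean of 3, and the open diamond dark glucose library 2. ELIP1 is highest in the dark with glucose (334 to 699 CPM), CHS is above 400 CPM in every glucose library, and CAX3 is highest in light with glucose (81.3 to 98.3 CPM).

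Genes of the second group were lowered by light without glucose, and their light to dark ratio was higher with it. COR413IM1 (AT1G29395, chr1:10288197-10289621, minus strand), a cold-regulated protein of the chloroplast inner envelope, had the largest interaction above 0 among the genes named. It stood at 31.0, 24.5 and 37.7 CPM in the dark and 0.355, 0.199 and 0.081 CPM in the light. With glucose it stood at 13.1, 12.8 and 16.6 CPM in the dark and 2.75, 4.199 and 4.92 CPM in the light. No groups overlapped, and light lowered it both ways, by -7.08 ± 0.62 (adjusted p = 5.17e-10) and by -1.75 ± 0.41 (adjusted p = 0.00482). The interaction was 5.33 ± 0.79 (adjusted p = 0.000309), or 5.23 (adjusted p = 0.00126) without library 2. The untreated light libraries held 11262874, 10028344 and 12339680 counts, so its levels there rest on a few reads each. The sizes of its light response without glucose and of its interaction, and its rank, are uncertain to that extent. A close paralog lies beside it, so reads could be shared between them. ST2A (AT5G07010, chr5:2174678-2176106, minus strand), a sulfotransferase that acts on hydroxyjasmonate, fell from 286, 228 and 246 CPM to 13.7, 15.6 and 7.05 CPM in light. With glucose it went from 151, 110.4 and 192 CPM to 77.9, 87.6 and 76.7 CPM, again with no overlap, but a light response of -0.82 ± 0.30 (adjusted p = 0.102) did not pass. The interaction was 3.47 ± 0.45 (adjusted p = 3.08e-05), or 3.27 (adjusted p = 0.000281) without library 2.

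Genes of abscisic acid and auxin were among them. In the abscisic acid and dehydration list 2 of 17 genes were called above 0, against 1.2% of all genes, and none below 0, with and without library 2. The list as a whole had 10 members above 0 and 7 below, from -3.74 to 2.62 with a median of 0.11 (0.49 without library 2). NCED3 (AT3G14440, chr3:4831288-4833599, minus strand), the dioxygenase that limits abscisic acid synthesis under drought, fell from 8.61, 9.67 and 12.3 CPM in the dark to 1.78, 0.499 and 1.22 CPM in the light. With glucose it stood at 19.4, 22.3 and 33.0 CPM in the dark and 14.03, 15.7 and 20.4 CPM in the light, which overlapped. Its light response with glucose was -0.49 ± 0.24 (adjusted p = 0.273) and its interaction 2.51 ± 0.40 (adjusted p = 0.000717), or 2.41 (adjusted p = 0.0031) without library 2. ABI2, a phosphatase that restrains abscisic acid signalling, had an interaction of 1.16 ± 0.30 (adjusted p = 0.0311; 1.25, adjusted p = 0.0382 without library 2), which did not pass in 7 of the 12 fits that left out 1 library each. IAA19 (AT3G15540, chr3:5264024-5265678, plus strand), an auxin-response repressor induced with elongation, went from 65.1, 65.2 and 46.7 CPM to 5.33, 10.3 and 4.05 CPM in light, and with glucose from 77.2, 63.8 and 71.7 CPM to 24.1, 25.2 and 19.95 CPM. Light libraries lay below dark ones in both conditions, and the glucose light libraries lay above the untreated ones. The interaction was 1.55 ± 0.36 (adjusted p = 0.0164), 1.45 (adjusted p = 0.0425) without library 2, and 1.28 (adjusted p = 0.0798) without wild-type light library 3. SAUR22, a small auxin-up RNA gene of cell expansion, held 16.1, 14.7 and 12.6 CPM in the dark, 0.355, 2.29 and 0.973 CPM in the light, 9.23, 2.59 and 9.20 CPM in the dark with glucose and 5.67, 4.79 and 4.24 CPM in the light with glucose, where library 2 lay below the light libraries. Its interaction was 3.07 ± 0.66 (adjusted p = 0.0104), 2.66 (adjusted p = 0.0235) without library 2 and 2.92 (adjusted p = 0.0514) without wild-type light library 3.

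Also lowered by light and less so with glucose were CYS2, a cystatin that inhibits cysteine proteases, and RAB7A, a small GTPase of vacuolar traffic. CYS2 had an interaction of 2.2 ± 0.52 (adjusted p = 0.0186), 2.38 (adjusted p = 0.0235) without library 2, 1.98 (adjusted p = 0.0624) without dark glucose library 1 and 1.86 (adjusted p = 0.0825) without light library 3. RAB7A had 2.097 ± 0.49 (adjusted p = 0.0185), 1.99 (adjusted p = 0.0433) without library 2, 2.01 (adjusted p = 0.0522) without dark library 1, 1.95 (adjusted p = 0.0762) without light library 3 and 1.77 (adjusted p = 0.0745) without light glucose library 2. In the elongation and shade list, 3 of 14 genes were called above 0 (IAA19, PRE1 and EXPA8), against 1.2% of all genes, and none below 0, at a median of 1.35 against 0.01 over all genes. Without library 2 only IAA19 passed, against 0.719% of all genes, at a median of 1.05. Without glucose 11 members fell in light and 1 rose, and the median of the whole list was -1.85. With glucose 4 fell and 1 rose, and the list median was -0.74 (5 and 1, at -0.93, without library 2). PRE1, a helix-loop-helix factor that promotes elongation, had 2.45 ± 0.67 (adjusted p = 0.0436) and, without library 2, 2.09 (adjusted p = 0.0932). EXPA8, a wall-loosening expansin, had 1.28 ± 0.33 (adjusted p = 0.032) and 1.00 (adjusted p = 0.0845).

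Sequences upstream of these genes were read because light-responsive and abscisic acid-responsive factors share a core motif, the G-box CACGTG, which reads the same on both strands. In the 250 bases before the start of the longest model, 8.62% of 22432 genes tested held it, against 27 of the 140 genes (19.3%) with an interaction above 0 in both fits and 17 of the 138 (12.3%) with one below 0. The telo-box AAACCCTA, searched on both strands, was in 5.9% of all windows, 0.714% of those above 0 and 7.25% of those below 0. The I-box GATAAG was in 13% of all windows, 12.9% of those above 0 and 17.4% of those below 0, and the auxin response element TGTCTC in 12.3%, 15.7% and 17.4%. Of the 20 genes with the largest interactions, ELIP1 and ZF14 among those below 0 and COR413IM1, ST2A, NCED3, CYS2 and RAB7A among those above 0 held a G-box. A match describes the sequence and says nothing of a factor. SAUR22, CAX7, ABI2, PRE1 and EXPA8 were also lowered by light without glucose and held no G-box. For comparison, windows are given of ELIP1 and of 4 genes lowered by light, all of which hold one. For these genes the sequence is from the RefSeq TAIR10.1 genome and 5′ to 3′ on the gene's strand, with the G-box in capitals. Their windows were chr1:10289622-10289871 (minus strand) for COR413IM1, chr5:2176107-2176356 (minus) for ST2A, chr3:4833600-4833849 (minus) for NCED3, chr3:5263774-5264023 (plus) for IAA19 and chr3:8085561-8085810 (minus) for ELIP1.
COR413IM1: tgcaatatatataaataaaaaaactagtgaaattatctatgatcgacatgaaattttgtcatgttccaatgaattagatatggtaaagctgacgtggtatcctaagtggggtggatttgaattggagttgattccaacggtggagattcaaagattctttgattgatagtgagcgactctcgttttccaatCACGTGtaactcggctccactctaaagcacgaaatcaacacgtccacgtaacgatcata
ST2A: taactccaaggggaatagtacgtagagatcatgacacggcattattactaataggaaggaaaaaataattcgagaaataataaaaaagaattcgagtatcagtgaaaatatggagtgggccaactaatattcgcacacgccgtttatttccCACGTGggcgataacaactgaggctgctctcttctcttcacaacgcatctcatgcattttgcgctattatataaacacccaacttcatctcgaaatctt
NCED3: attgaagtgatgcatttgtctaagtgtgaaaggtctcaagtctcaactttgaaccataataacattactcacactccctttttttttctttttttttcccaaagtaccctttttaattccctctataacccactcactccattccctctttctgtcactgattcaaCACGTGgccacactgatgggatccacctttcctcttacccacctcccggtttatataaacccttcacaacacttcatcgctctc
IAA19: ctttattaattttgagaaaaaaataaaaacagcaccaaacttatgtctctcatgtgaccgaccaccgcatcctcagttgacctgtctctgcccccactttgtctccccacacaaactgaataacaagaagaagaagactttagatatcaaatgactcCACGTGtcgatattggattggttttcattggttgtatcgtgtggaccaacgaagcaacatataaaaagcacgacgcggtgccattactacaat
ELIP1: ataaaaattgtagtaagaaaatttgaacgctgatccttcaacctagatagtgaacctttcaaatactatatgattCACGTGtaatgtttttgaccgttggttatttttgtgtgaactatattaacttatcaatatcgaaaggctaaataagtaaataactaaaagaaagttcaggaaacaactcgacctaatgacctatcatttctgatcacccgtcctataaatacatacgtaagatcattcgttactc
The first base of the G-box lay at -59 in COR413IM1, -99 in ST2A, -84 in NCED3, -93 in IAA19 and -175 in ELIP1, counted back from the start.

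Genes of the third group had an estimated light response above 0 with glucose and below 0 without it. CAX3 (AT3G51860, chr3:19239427-19242913, plus strand), a proton/calcium exchanger of the vacuole, had the smallest adjusted p of the genes named. It stood at 26.2, 24.3 and 23.5 CPM in the dark, 9.5, 8.18 and 9.97 CPM in the light, 32.1, 37.0 and 31.2 CPM in the dark with glucose and 98.3, 81.3 and 93.9 CPM in the light with glucose. No groups overlapped. Light lowered it by -1.32 ± 0.24 (adjusted p = 7.35e-05) without glucose and raised it by 1.54 ± 0.22 (adjusted p = 1.66e-05) with it, so the interaction was 2.86 ± 0.32 (adjusted p = 2.28e-06), or 2.90 (adjusted p = 1.23e-05) without library 2. FER1 (AT5G01600, chr5:227953-230051, minus strand), a chloroplast ferritin that stores iron, stood at 774, 863 and 865 CPM in the dark, 513, 490.2 and 543 CPM in the light, 729, 519 and 541 CPM in the dark with glucose and 2452, 2523 and 2201 CPM in the light with glucose. The light glucose libraries were above all others. The light response was -0.60 ± 0.40 (adjusted p = 0.289) without glucose and 2.09 ± 0.42 (adjusted p = 0.00105) with it, and the interaction was 2.69 ± 0.58 (adjusted p = 0.0102), or 2.56 (adjusted p = 0.0314) without library 2.

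GLK1 (AT2G20570, chr2:8855358-8857756, plus strand), a factor that activates antenna and chlorophyll genes, was likewise highest in light with glucose. Its levels were 45.6, 51.4 and 41.2 CPM in the dark, 36.5, 34.1 and 36.2 CPM in the light, 31.9, 25.8 and 41.1 CPM in the dark with glucose and 77.3, 74.0 and 81.7 CPM in the light with glucose, where every library was above the other 9. The light response was -0.27 ± 0.23 (adjusted p = 0.42) and 1.32 ± 0.23 (adjusted p = 0.000201), and the interaction was 1.59 ± 0.32 (adjusted p = 0.00696), or 1.42 (adjusted p = 0.0235) without library 2. KT2/3 (AT4G22200, chr4:11746513-11750698, minus strand), a potassium channel of the phloem, fell in light without glucose by -1.15 ± 0.30 (adjusted p = 0.00398) and rose with it by 1.04 ± 0.28 (adjusted p = 0.0138; 0.89, adjusted p = 0.098 without library 2). Its interaction was 2.19 ± 0.41 (adjusted p = 0.00306), or 2.04 (adjusted p = 0.0118) without library 2. CAX7, a cation/calcium exchanger, had an interaction of 2.51 ± 0.50 (adjusted p = 0.00615), or 2.82 (adjusted p = 0.00473) without library 2. It fell in light without glucose, by -2.04 (adjusted p = 0.000128), and stood at 0.48 (adjusted p = 0.495) with it. CSY2, a citrate synthase of peroxisomes, stood at 53.5, 56.4 and 58.0 CPM in the dark, 33.5, 33.4 and 31.2 CPM in the light, 44.0, 63.4 and 53.3 CPM in the dark with glucose and 64.0, 60.9 and 60.1 CPM in the light with glucose. Light lowered it without glucose by -0.68 ± 0.14 (adjusted p = 0.000315), the glucose groups overlapped through library 2, and the interaction was 0.98 ± 0.19 (adjusted p = 0.0049), or 1.08 (adjusted p = 0.00473) without library 2.

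Lists of photosynthesis genes had 0 or 1 called member below 0 each, and over all genes 1.09% were called below 0. None of 42 light-harvesting and photosystem genes was called with or without library 2, and 8 of them rose in light without glucose. Their median was 0.00 with all libraries and -0.35 without library 2, which left 39 of 42 members below 0 against 21 with it. In the Calvin cycle list 1 of 19, RPI3, a ribose phosphate isomerase, was below 0 at -1.09 (adjusted p = 0.0348; -1.28, adjusted p = 0.0155 without library 2), which did not pass in 8 of the 12 fits that left out 1 library each, and in the photorespiration list 1 of 13, GLDP2, a glycine decarboxylase subunit, at -1.24 (adjusted p = 0.0252; -1.12, adjusted p = 0.0677). In light without glucose 15 Calvin cycle genes rose and the median of the whole list was 1.097. With glucose 8 rose and the list median was 0.86 (3 and 0.65 without library 2). Chlorophyll synthesis had GLK1 above 0 among 21 genes, with 17 members below 0 and, without library 2, HEMC, a tetrapyrrole enzyme, called below 0 at -1.21 (adjusted p = 0.044). Of 20 light signalling genes 3 were called below 0, ELIP1, ELIP2 and HYH, against 1.09% of all genes, and none above 0. HY5 stood at -1.53 (adjusted p = 0.147). The list as a whole did not lie below 0. Its median was 0.11 (0.07 without library 2), with 11 members above 0 and 9 below in both fits. None of 19 circadian clock genes was called.

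The listed genes of cytosolic ribosomal proteins, which mark growth capacity, rose together in light without glucose. The list of 20 was chosen with earlier results of these data known, and ribosomal protein genes outside it were not counted. All 20 tested were called higher, by 0.64 to 1.33 with a median of 0.90, and with glucose none was called, at -0.05 to 0.23 with a median of 0.13 (0.08 to 0.41, median 0.23, without library 2). The interaction lay below 0 for all 20, from -1.39 to -0.50 with a median of -0.79, and 3 were called, against 1.09% of all genes, RPL9D, RPP0B and RPS10B, at -1.39 ± 0.33, -1.12 ± 0.29 and -0.80 ± 0.21 (adjusted p = 0.0185, 0.0328 and 0.0392). None was called without library 2, where the median was -0.66 and those 3 had adjusted p of 0.0519, 0.0693 and 0.0645. RPL9D stood at 25.4, 25.0 and 23.3 CPM in the dark, 42, 70.9 and 61.3 CPM in the light, 91.7, 107 and 61.3 CPM in the dark with glucose and 77.9, 84.7 and 71.3 CPM in the light with glucose, so that light and dark parted only without glucose. The dark level was higher with glucose at a list median of 0.89. Ribosomal protein genes have close copies, and counts may be split between them. Of 10 ribosome biogenesis genes 9 rose in light without glucose and none with it, and the medians of the whole list were 1.03 and -0.02. NUC1, a nucleolin, was the member called, at -1.21 (adjusted p = 0.0351; -1.06, adjusted p = 0.0932 without library 2).

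In lists of carbon supply the called members are to be read against 1.2% of all genes called above 0 and 1.09% below 0. Of 19 genes of beta-oxidation and the glyoxylate cycle, which release carbon from seed oil, CSY2 and AIM1, a multifunctional protein of beta-oxidation, were called above 0, at 0.98 and 0.65 (adjusted p = 0.0186 for AIM1; 0.58, adjusted p = 0.0604 without library 2), and the list median was 0.49 (0.46 without library 2). In 17 dark-inducible starvation markers DIN2, a beta-glucosidase, was called above 0 at 2.97 (adjusted p = 0.0377), but not without library 2, at 2.76 (adjusted p = 0.0925). The list median was 0.19 with 10 members above 0 and 7 below, and -0.04 with 8 above and 9 below without library 2. In 25 amino acid catabolism genes MGL, a methionine lyase, and ETFB, an electron transfer protein, were called above 0 at 1.54 and 0.74 (adjusted p = 0.0308 and 0.0495). Neither passed in the same fit without library 2. That list had a median of 0.45 (0.46 without library 2), with 19 members above 0 and 6 below in both fits. DIN2 held 217, 209 and 326.5 CPM in the dark, 57.2, 19.7 and 25.4 CPM in the light, 12.7, 8.14 and 12.4 CPM in the dark with glucose and 13.6, 5.80 and 16.6 CPM in the light with glucose, where light and dark overlapped. BAM3, a beta-amylase of chloroplast starch breakdown, was the one of 18 tested in its list, at -3.63 ± 0.92 (adjusted p = 0.0308; -2.92, adjusted p = 0.102 without library 2). SPP1, a sucrose phosphatase, and NRT1.1, a nitrate transceptor, were called at 1.05 and 1.71 (adjusted p = 0.0251 and 0.0212). In the same fit without library 2 neither passed, at 1.02 and 1.55 (adjusted p = 0.0526 and 0.0606). No member was called among the SnRK1 complex genes, the bZIP C and S1 factors, the trehalose phosphate genes, starch synthesis, the cell cycle, hypoxia or senescence. KIN10 had -0.31 ± 0.56 (adjusted p = 0.835) and KIN11 0.40 ± 0.24 (adjusted p = 0.405). The trehalose phosphate median went from -0.64 to 0.17 without library 2. Of the 43 named genes that were called, 19 kept the call in each of the 12 fits that left out 1 library, among them all 20 with the largest values but SAUR22, CYS2 and RAB7A, together with GLK1 and CSY2. For those 20 the call in one of the 12 fits, that without library 2, was required by the naming rule, while the list members faced no such rule. The call was lost in 2 of these fits for AIM1 and NRT1.1, in 4 for MYB11, in 5 for FLS1, in 6 for RPL9D, in 8 for GLDP2, DIN2 and SPP1, in 9 for MGL, BAM3, RPP0B, RPS10B and NUC1, in 10 for PRE1 and EXPA8, and in 11 for ETFB.

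**Figure D3:**
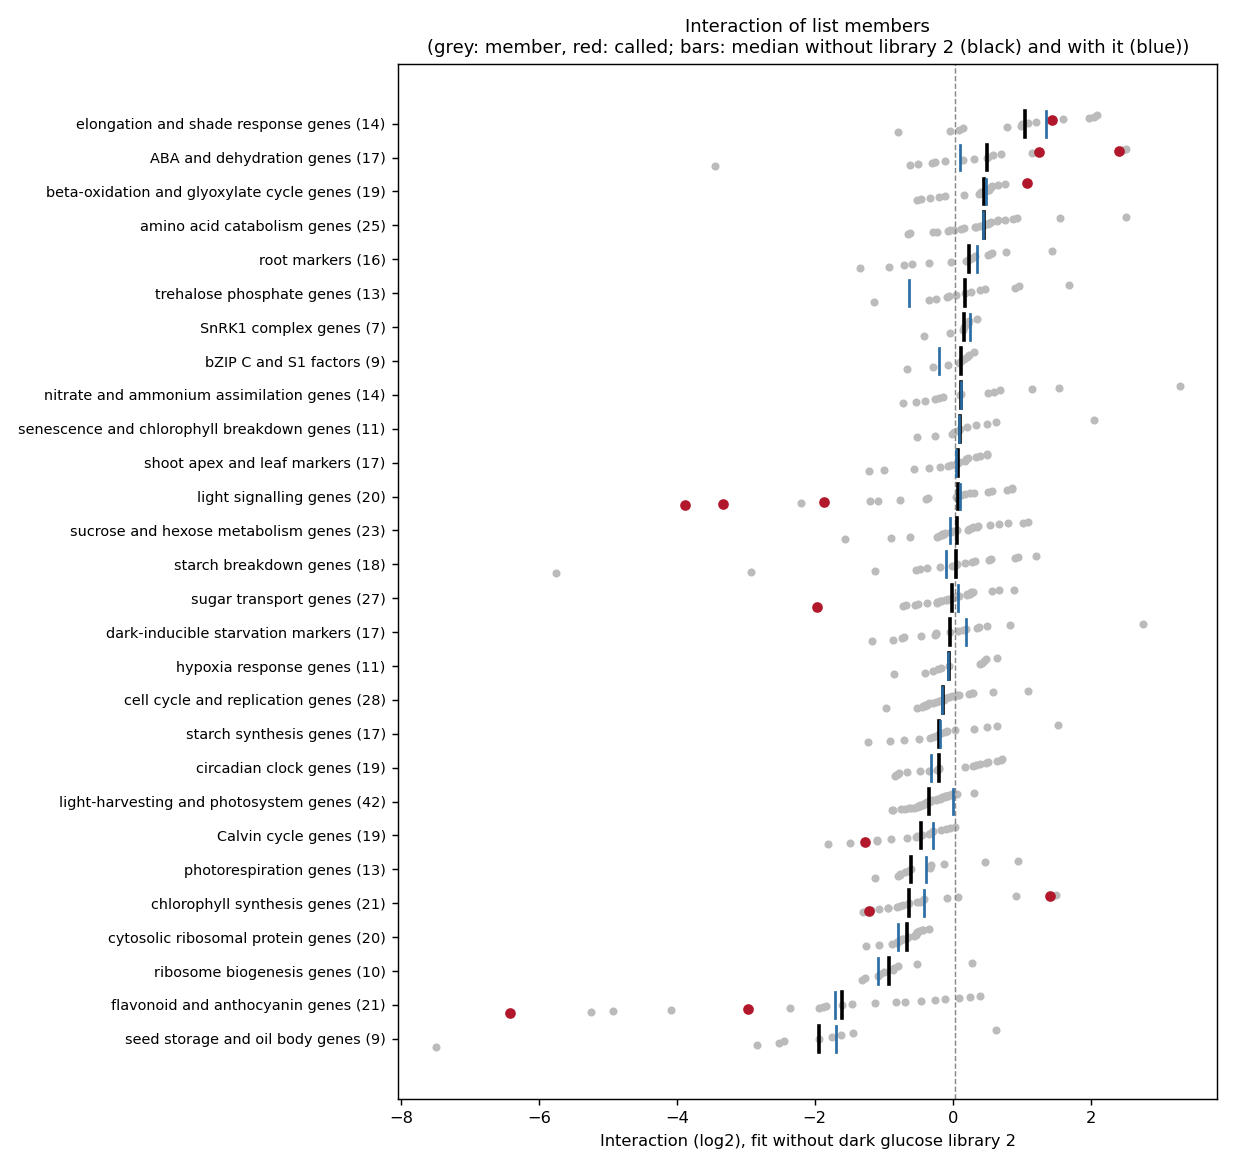
Interaction (log2) of each tested member of 28 gene lists in the fit without dark glucose library 2, with called members in red, the list median in black, and the median with all libraries in blue; the dashed line is the median of all genes in that fit, 0.03. All 20 listed ribosomal protein genes and 18 of 21 listed flavonoid genes lie below 0. Fitted values of the 5 members at 0 in the dark (GSTF12, PAP2, MYB11, BAM5 and SESA2) depend on the fit's prior count.

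The plot of list medians sets both light responses side by side. Photorespiration (1.57 without glucose, 1.31 with it) and Calvin cycle genes (1.097 and 0.86, or 0.65 without library 2) had medians nearer each other than flavonoid (2.89 and 1.06, or 1.14 without library 2) and ribosomal protein genes (0.90 and 0.13, or 0.23). Elongation genes had -1.85 and -0.74, or -0.93 without library 2. These medians share their samples with the interaction and describe its parts.

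**Figure D4:**
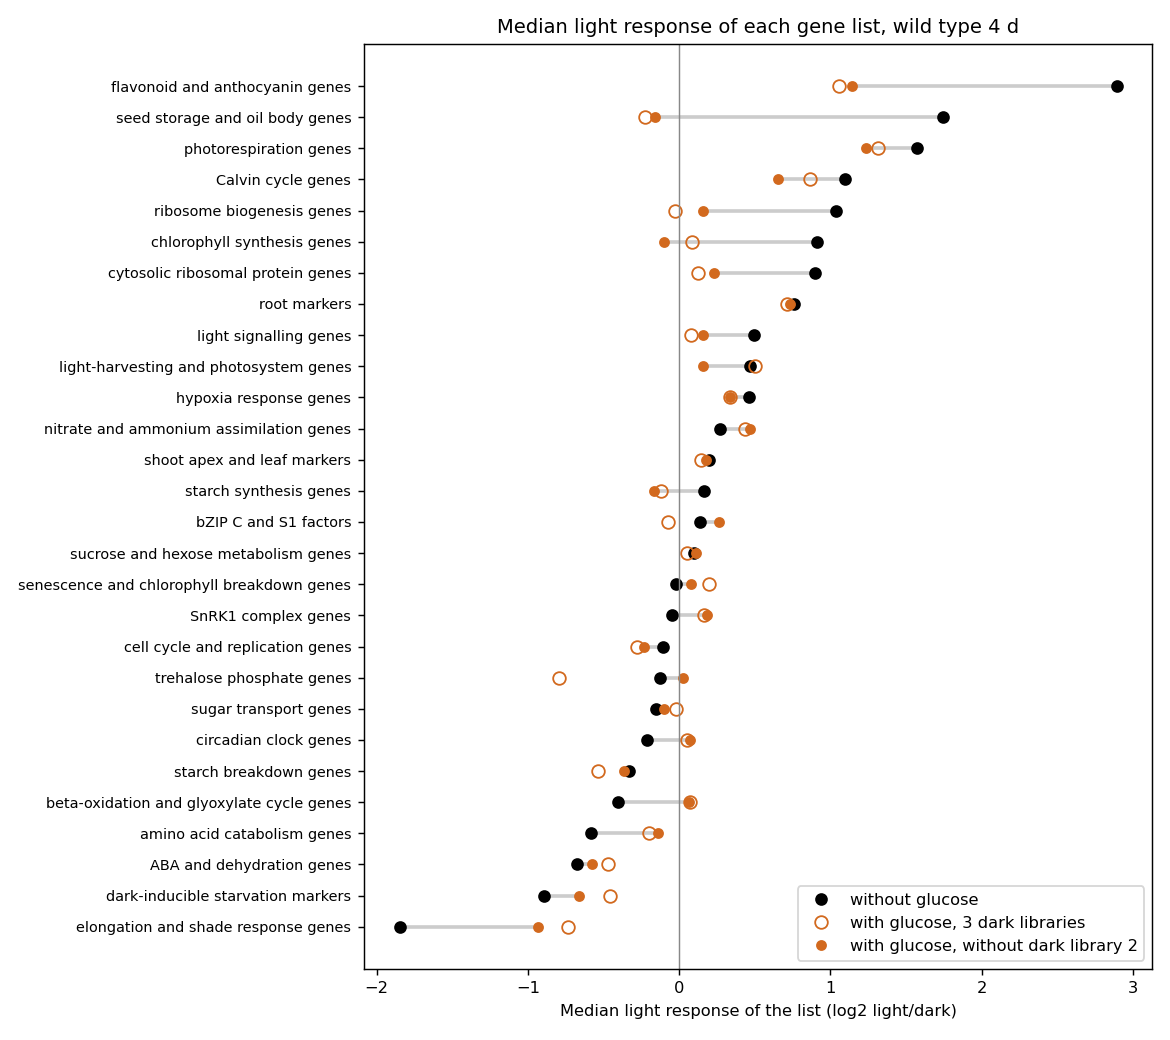
Median light response (log2 light/dark) of each gene list in wild type at 4 d, without glucose in black, with glucose in open orange (3 dark libraries) and filled orange (without dark glucose library 2). The flavonoid list goes from 2.89 to 1.06 and the ribosomal protein list from 0.90 to 0.13.

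The 5 d wild-type libraries, whose labels name no glucose and which are not part of the interaction, gave another measure of the light response, called for 8002 genes, 35.4% of those tested. Of the 517 genes, 391 were called in light against dark at 5 d, and in 385 of these the interaction had the opposite sign, 213 with the interaction above 0 and the gene lower in light at 5 d and 172 the other way. A called 4 d light response without glucose, which enters the interaction with a minus sign, was present in 476 of the 517. Opposite signs were thus partly built in, and the counts describe the called genes and do not test them. Over all 8002 genes called at 5 d, not matched for the size of the light response, the share with opposite signs was 80.3%. Among the 278 genes called in both fits it was 235 of 239. GMI1 was an exception, with a light response of -1.31 (adjusted p = 0.0451) at 5 d against 2.41 at 4 d without glucose. ELIP1, at 0.31 (adjusted p = 0.698), and CHS, at 1.00 (adjusted p = 0.0815), did not pass at 5 d.

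The mutant groups gave the same measure in 12 other libraries, among them mutant dark glucose library 2, which was closer to the wild type in expression. In the mutant the interaction was called for 3 genes, 0.0133% of those tested, against 1748 with an unadjusted p under 0.05. It was called for 19 genes, 0.0818%, when wild-type dark glucose library 2 was left out of the fit, and for 1 of 23239 without dark glucose library 2 of both genotypes. The 3 were ARR9, a response regulator of cytokinin signalling, at -1.32 (adjusted p = 0.00298; -0.88, adjusted p = 0.0112 in the wild type), AOC3, an allene oxide cyclase of jasmonate synthesis, at 1.78 (adjusted p = 0.0285; -0.33, adjusted p = 0.68), and AT2G17660 at 3.78 (adjusted p = 0.0141; -0.52, adjusted p = 0.805). Of the 517 wild-type genes, 282 had the same sign in the mutant, and the median size there was 0.26, the same as over all genes. The difference between genotypes, which tests this directly, was called for 80 genes, 0.354% of those tested, 16 higher (0.0708%) and 64 lower (0.283%) in the mutant, and for 46, 0.198%, without library 2. It was 28 of 23239 without dark glucose library 2 of both genotypes, and 184 without wild-type dark glucose library 3. Leaving out wild-type dark library 1 or 3, dark glucose library 1, light library 3 or any one light glucose library gave 32 to 50. For the other genes a difference between genotypes was not shown, and 3230 had an unadjusted p under 0.05 for it.

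Among the named genes the difference passed for CAX3, ZF14, GLK1, NRT1.1, bZIP63 and EXPA8. The mutant values include mutant dark glucose library 2, and values of single genes are not given here without it. CAX3 in the mutant stood at 31.4, 15.0 and 27.4 CPM in the dark, 35.6, 44.0 and 39.3 CPM in the light, 29.9, 28.3 and 37.0 CPM in the dark with glucose and 58.0, 42.3 and 55.5 CPM in the light with glucose. Light libraries were above dark ones both with and without glucose, unlike the wild type, and the interaction was 0.00 ± 0.33, which differed from the wild type by -2.86 ± 0.45 (adjusted p = 0.00156; -2.90, adjusted p = 0.0041 without library 2). ZF14 had an interaction of -0.10 in the mutant, a difference of 2.25 ± 0.41 (adjusted p = 0.00708; 1.98, adjusted p = 0.027 without library 2). GLK1 had -0.56, a difference of -2.15 ± 0.46 (adjusted p = 0.0285; -1.97, adjusted p = 0.0545 without library 2). COR413IM1 and ST2A had 2.08 and 1.70 in the mutant, and their differences of -3.25 ± 1.12 and -1.77 ± 0.61 (adjusted p = 0.177 for each) did not pass.

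**Figure D5:**
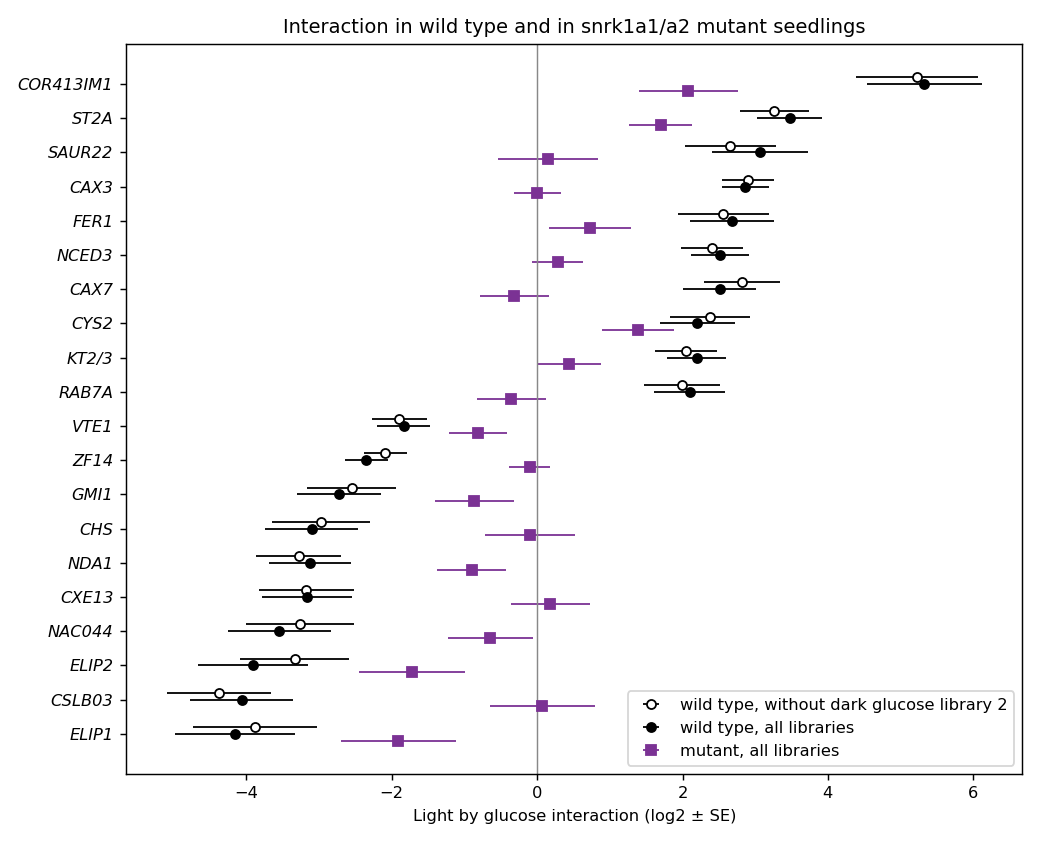
Light by glucose interaction (log2 ± SE, pooled over 42 libraries) of the 20 genes with the largest values under the naming rule, in wild type (all libraries, and without dark glucose library 2) and in the snrk1a1/a2 mutant. CAX3 stands at 2.86 in wild type and 0.00 in the mutant, ELIP1 at -4.16 and -1.91.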

How the data were processed

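The values deposited are unnormalised counts of reads for each transcript model, made by the authors with featureCounts 1.6.2 per the file headers, after alignment with STAR to TAIR10 per the submitters' processing notes, which also name DESeq2. The deposited tables also give each model's exonic length as another unit, in bases per the file headers. Per those headers one read could add to several models and no strand option appears, so overlapping antisense genes and close paralogs are uncertain. Each of 32678 genes was represented by its longest model, and these models hold 65.23% of all counts. The 3 d dark columns that occur in both title series differed by little more than counting error (chi-square per degree of freedom 1.037 to 1.057, against 7.121 to 40.63 for different numbers) and were summed, which leaves 42 libraries in 14 groups. The intervals and standard errors cover these libraries only, and with 3 per group their number limits the precision.

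Genes were filtered with filterByExpr and fitted with TMM and edgeR 4.0.16's robust quasi-likelihood test (R 4.3.3, limma 3.58.1), 1 mean per group over all 42 libraries, 28 residual degrees of freedom, Benjamini-Hochberg adjustment over 22586 genes and a threshold of 0.05. The steps were tested on simulated data. CPM are counts scaled to a library total of 1e+06, with no TMM factor. Named genes were the 10 largest interactions in each direction among genes with a symbol, called with and without wild-type dark glucose library 2, at a mean log2 CPM of at least 2, up to 3 called members of each list (or the one with the smallest adjusted p), and KIN10 and KIN11; HEMC, HY5, CHI, PAP1, F3'H, GSTF12, PAP2 and the 3 genes called in the mutant were named after their values were seen. The members and the 28 gene lists were chosen with earlier results of these data known. Replicate numbers did not pair dark and light libraries: deviations from the group means of same-numbered libraries correlated at -0.068, 0.068 and -0.105 without glucose and 0.04, -0.122 and -0.158 with it. Alternatives were other sets of libraries, DESeq2 1.42.0, limma-voom, other size factors, filters and gene models, a replicate block, and leaving out each library. Promoters were read from the RefSeq TAIR10.1 genome, in which all 31912 genes compared by locus tag overlapped their own position in the files.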

Additional observations from a re-analysis of the deposited data

Results flagged for a closer look

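In 6 of the named genes the light by glucose interaction differed between genotypes by the test of the difference itself (edgeR's quasi-likelihood test, mutant minus wild type, log2). Mutant dark glucose library 2, which was closer to the wild type in expression, was kept in these fits. The differences were 2.25 for ZF14, -2.86 for CAX3, -2.15 for GLK1, -2.86 for NRT1.1, 1.46 for bZIP63 and -2.14 for EXPA8, with adjusted p of 0.00708, 0.00156, 0.0285, 0.0198, 0.0417 and 0.0353. Without wild-type dark glucose library 2 those of ZF14 (1.98, adjusted p = 0.027), CAX3 (-2.90, adjusted p = 0.0041) and NRT1.1 (-2.71, adjusted p = 0.0454) passed, and those of GLK1 (-1.97, adjusted p = 0.0545), bZIP63 (1.44, adjusted p = 0.0664) and EXPA8 (-1.86, adjusted p = 0.0507) did not. NRT1.1 in the mutant stood at 193, 70.2 and 71.4 CPM in the light, where library 1 is well above the others, against 57.6, 60.0 and 62.0 CPM in the dark, and its part in the difference was not tested. bZIP63, a C-group factor of energy signalling, had an interaction of -0.67 (adjusted p = 0.102) in the wild type and 0.79 in the mutant, neither of which passed.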

How the results depend on the processing

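The main fit pooled the spread of all 42 libraries (biological coefficient of variation 21.13%), and fits to fewer libraries, with a smaller one (16.84% for the 12 libraries, 13.31% for 11), called more genes. Against 517 genes (271 above 0, 246 below 0), the interaction was called for 1960 (770 and 1190) in the 12 libraries alone, 3010 (1138 and 1872) in the 11 without dark glucose library 2, 1568 (683 and 885) in the 21 wild-type libraries and 1781 (645 and 1136) in 20 of these, 1422 (468 and 954) with DESeq2, 952 (289 and 663) with DESeq2 without library 2, and 4417 (2077 and 2340) with limma-voom. It was 628 (216 and 412) with RLE factors, 623 (269 and 354) with upper-quartile factors, 359 (177 and 182) with no filter on low counts and 395 (190 and 205) without dark glucose library 2 of both genotypes. Leaving out 1 library gave 155 to 889 genes, 81 to 444 above 0 and 74 to 445 below 0. The replicate numbers did not pair the samples. With the number as a replicate block, set separately with and without glucose, the 12 libraries gave 1319 genes (525 and 794) against 1960 without it. That block lies within glucose, so its glucose differences (6061 genes in the dark, 4982 in the light) set different replicates against each other. They are not the same measure as the 11084 and 9679 without the block. The light response without glucose went from 6293 to 10314 genes with limma-voom and to 4619 to 6462 without 1 library. The light response with glucose went from 1762 to 2854 in the 12 libraries, 3609 in 11, 2700 in 21, 4132 with limma-voom, 1141 without library 2 of both genotypes and 1047 to 1702 without 1 library. Without 1 library the glucose difference gave 7677 to 9579 genes in the dark and 6191 to 8367 in the light. The mutant interaction went from 3 genes to 54 with DESeq2, 84 with DESeq2 without library 2 and 1 without library 2 of both genotypes. It was 3 to 19 without 1 wild-type library, which does not show how it depends on single mutant libraries. The genotype difference went from 80 to 315 with DESeq2, 279 with DESeq2 without library 2, 978 with limma-voom and 48 with no filter. It was 28 without library 2 of both genotypes and 32 to 184 without 1 wild-type library. The median of all genes moved from 0.01 to -0.05 with RLE factors and -0.02 with upper-quartile factors. Of 1539 values of the 57 named genes under these alternatives, 1309 kept their side of the threshold or had no adjusted p, 195 no longer passed and 35 newly passed. Of the values with a call in either fit, 0 changed direction. A change of sign in a gene called in neither fit was not counted. The causes were not tested. The alternatives with 11, 20 and 21 libraries and DESeq2 without library 2 were chosen after seeing the data.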
